A study of Mus musculus with 6 samples.

Results

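The genes described here are 9 receptors through which vasoactive peptides, thrombin and lysolipids act on fibroblasts: Agtr1a, Ednra, Ednrb, F2r, F2rl1, Lpar1, S1pr2, S1pr3 and Bdkrb2. They were chosen by name, by a rule that uses no measured values but with earlier results of these data known. Of the 42256 genes of the count table, 15840 passed the filter on low counts and were tested, among them all 9. The choosing rule also names adrenergic receptors, but none is among the 9, and they are given below as a companion list. RNA was sequenced from PDGFRa+ cells sorted by flow cytometry out of the scar of mouse hearts, 7 days after injury. All mice were on a mixed 129S2/C57Bl6 background, carried Htr2b flanked by loxP sites on both alleles (Htr2bfl/fl), and were fed tamoxifen chow, beginning 1 week ahead of injury and lasting to the end. The 4 Htr2b_cKO libraries (Htr2bfl/flPostnMCM/+) also carried an inducible Cre at 1 allele of Postn, which limits deletion to cells that switch on periostin. The 2 control libraries carried no Cre, so what the Cre or the altered Postn allele does and what Htr2b deletion does cannot be told apart. Ages are not given in the labels, and whether each library is 1 animal follows only from the series design. P-values therefore measure the spread between these samples.

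All 9 genes encode G protein-coupled receptors, membrane proteins that pass an outside signal to G proteins inside the cell. Many of them couple to Gq, which releases calcium, and to G12/13, which switches on the small GTPase RhoA and its kinases and so drives actin assembly and contraction. Htr2b, the serotonin receptor deleted here, is itself a Gq-coupled receptor of this kind. Angiotensin II, endothelin 1, thrombin, lysophosphatidic acid and sphingosine 1-phosphate are known to push fibroblasts toward the contractile, matrix-making myofibroblast state, while bradykinin acts mostly through vessel tone.

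The libraries held 28533427 to 37392496 estimated counts. Htr2b had 13 and 7 counts in the control libraries and 0, 3, 29 and 4 in the Htr2b_cKO libraries, so the library labelled Htr2b_cKO 3 lay above both controls. Its label is thus not borne out by the gene meant to be deleted. These counts are few and taken over the whole gene, so they cannot contradict the label either. Xist was at 0.267 CPM in the library labelled Htr2b_cKO 4 and at 385 CPM or more in the other 5, with Y-linked genes summing to 139 CPM against 0.483 CPM at most, so that library was the only male. Pdgfra, whose product the sort selected on, ranged from 668 to 1237 CPM. Marker genes of other cells were present and uneven: the summed level of 10 endothelial markers was 352 CPM in control 1 and 89.0 to 167 CPM elsewhere, that of 10 macrophage markers 359 to 4268 CPM, and that of 10 mural markers 321 to 512 CPM. None of the markers in these 3 lists was at 0 in every library. Their part in the receptor values was not tested. Because the RNA is from bulk cells, fewer cells of a type and less RNA per cell cannot be told apart.

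None of the 9 receptors was called between genotypes. Genotypes were compared with edgeR (quasi-likelihood F test), and a call was a Benjamini-Hochberg adjusted p under 0.05 over all 15840 genes, of which 0.0189% passed. DESeq2 also called 0 of the 9, against 0.647% of the genes it adjusted. An unadjusted p under 0.05 was reached by 2 receptors, F2r with higher and S1pr2 with lower values in Htr2b_cKO, where 9.59% of all genes reached it (6.6% on the higher and 2.99% on the lower side). The same 2 reached it with DESeq2, against 5.86% of genes, and after correction for GC content and gene length, against 5.3%. The same 2 were the receptors whose groups did not overlap, against 19.6% of all genes (10.6% higher, 8.98% lower), so 2 of 9 is near the background on that measure. Of the 9 log2 fold changes, 6 were above 0 and 3 below, with a median of 0.14 beside 0.00 for all genes tested. No permutation test of 2 against 4 libraries can give a p below 0.0667.

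**Figure D1:**
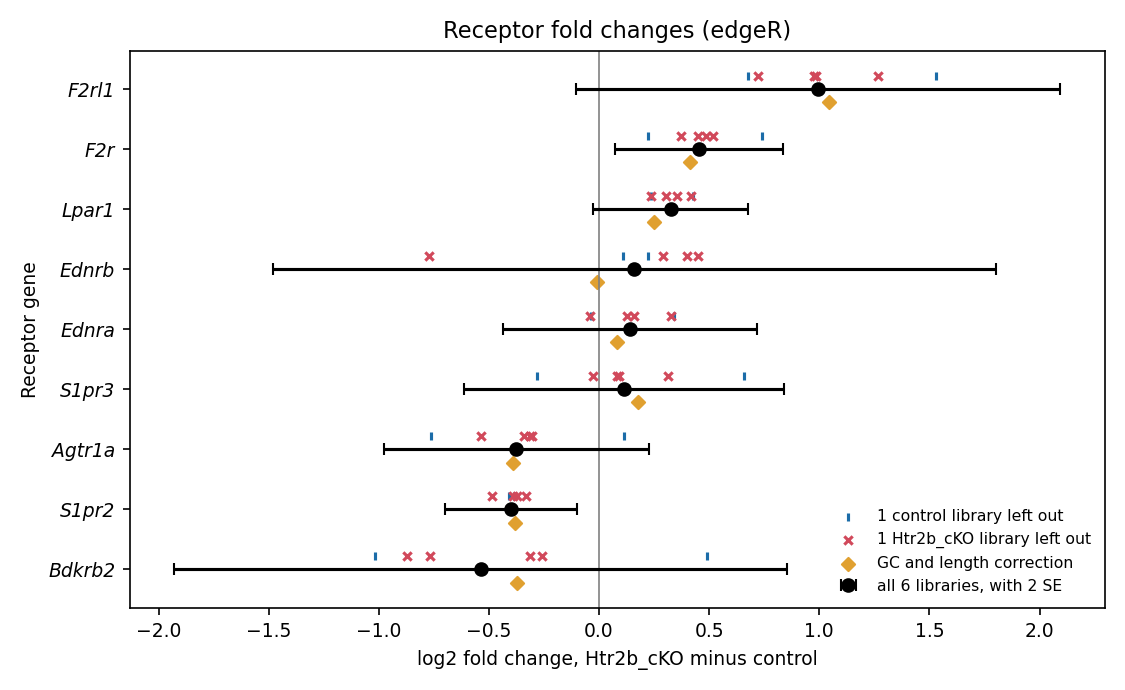
Log2 fold change of each receptor gene (Htr2b_cKO minus control) from edgeR, as black points with bars of 2 SE on either side. Blue ticks and red crosses show the value with 1 control or 1 Htr2b_cKO library left out, and yellow diamonds the value after GC and length correction. The bars of F2r and S1pr2 do not reach 0, and those of Ednrb and Bdkrb2 are the widest.

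F2r encodes protease-activated receptor 1, which thrombin switches on by cutting the receptor's own outer end. F2r (ENSMUSG00000048376, chromosome 13 from 95601803 to 95618487 in mm10, minus strand) had 73.6 and 51.0 CPM in the control libraries. In the Htr2b_cKO libraries it had 80.3, 86.4, 101 and 73.9 CPM. All 4 Htr2b_cKO libraries lay above both controls, but Htr2b_cKO 4 exceeded control 1 by little, and the lower control carried much of the difference. The means were 62.3 ± 16.02 CPM (SD, n = 2) and 85.4 ± 11.6 CPM (SD, n = 4). The estimate was a log2 fold change of 0.45 (SE 0.19, edgeR adjusted p = 0.51, exact two-sided permutation p = 0.0667). Its interval of 2 SEs spans 0.07 to 0.83. It was 0.74 without control 1 and 0.22 without control 2, where the unadjusted p was 0.329. With GC content and length corrected, the groups of F2r overlapped, where 13.6% of all genes had groups that did not.

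F2rl1, the gene of protease-activated receptor 2, which trypsin-like proteases and tryptase cut, lies 76575 bases from F2r on the same chromosome (ENSMUSG00000021678, chromosome 13 from 95511732 to 95525227). It was scarce, with 2.11 and 1.16 CPM in the controls, against 1.21, 3.43, 5.13 and 3.48 CPM in Htr2b_cKO. In 3 of the 4 Htr2b_cKO libraries it stood above both controls, and in Htr2b_cKO 1 it lay between them. Its log2 fold change was the largest of the 9 in size and imprecise at 1.00 (SE 0.55, edgeR adjusted p = 0.611), moving to 1.53 without control 1 and 0.67 without control 2. The interval of 2 SEs runs from -0.10 to 2.09. Without Htr2b_cKO 1 the unadjusted p was 0.0158, and without both Htr2b_cKO 3 and Htr2b_cKO 4 the fold change was 0.50.

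S1pr2 encodes a receptor for sphingosine 1-phosphate that couples strongly to G12/13. S1pr2 (ENSMUSG00000043895, chromosome 9 from 20962361 to 20976781) had 82.0 and 80.2 CPM in the control libraries, which nearly coincide. The Htr2b_cKO libraries had 53.6, 58.6, 73.6 and 60.5 CPM, all below both controls. The highest of them was Htr2b_cKO 3 and the lowest Htr2b_cKO 1. The means were 81.1 ± 1.2 CPM (SD, n = 2) and 61.5 ± 8.5 CPM (SD, n = 4). This gave a log2 fold change of -0.40 (SE 0.15, edgeR adjusted p = 0.468, exact two-sided permutation p = 0.0667), with an interval of 2 SEs from -0.70 to -0.10. Its log2 fold change lay between -0.53 and -0.33 over 15 other settings, and its unadjusted p was under 0.05 in 10 of them. With 1 Htr2b_cKO library left out, the unadjusted edgeR p was under 0.05 only without Htr2b_cKO 3, at 0.0054. It was 0.0668, 0.0602 and 0.0532 without Htr2b_cKO 1, 2 and 4. The log2 fold change was -0.38 without control 1 and -0.41 without control 2, each resting on 1 control.

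S1pr3, the other sphingosine 1-phosphate receptor of the set, couples to Gi, Gq and G12/13 and was the most abundant of the 9. S1pr3 (ENSMUSG00000067586, chromosome 13 from 51408639 to 51422797) had 121 and 231 CPM in the controls, against 206, 245, 110.3 and 199 CPM in Htr2b_cKO. Its spread lay within the groups: control 1 and the library labelled Htr2b_cKO 3 were low, the other 4 high. Control 2 was 1.91-fold above control 1. The genotypes differed by 0.11 on the log2 scale (SE 0.36, edgeR adjusted p = 0.945), with an interval of 2 SEs from -0.61 to 0.84. It was -0.28 without control 1 and 0.66 without control 2, so no direction can be given. The 10 macrophage markers summed to 2666 CPM in control 1, 4268 CPM in Htr2b_cKO 3 and 2285 CPM in Htr2b_cKO 2, the library with the highest S1pr3. The part of macrophages in the S1pr3 values was not tested.

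**Figure D2:**
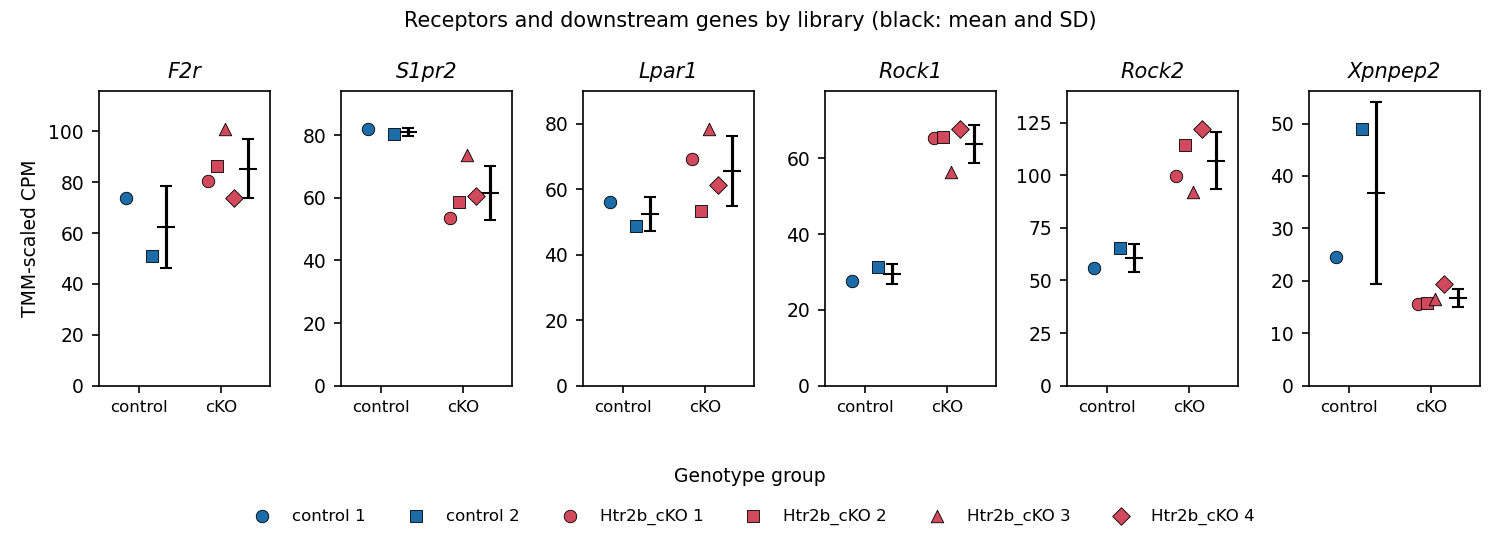
TMM-scaled CPM of 3 receptor genes (F2r, S1pr2, Lpar1), of the kinase genes Rock1 and Rock2 and of Xpnpep2 in each library, on linear axes from 0. Points are libraries, blue for control and red for Htr2b_cKO, and the black mark is the mean with its SD. The groups of Lpar1 overlap and those of the other 5 genes do not, with Htr2b_cKO 4 just above control 1 for F2r.

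Lpar1 encodes the lysophosphatidic acid receptor that is best known for fibroblast recruitment in fibrosis. Lpar1 (ENSMUSG00000038668, chromosome 4 from 58435255 to 58553898) had 56.0 and 48.7 CPM in the controls, against 69.3, 53.2, 78.4 and 61.5 CPM in Htr2b_cKO. Of the Htr2b_cKO libraries, 3 lay above both controls and Htr2b_cKO 2 lay between them. Lpar1 differed by 0.32 on the log2 scale (SE 0.18, edgeR adjusted p = 0.604), with an interval of 2 SEs from -0.03 to 0.68. It stayed above 0 in all 15 other settings, between 0.23 and 0.43. Without Htr2b_cKO 2 its unadjusted p was 0.037.

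The endothelin receptors Ednra and Ednrb bind the same peptide, and Ednra is the form known for contraction and matrix production. Ednra (ENSMUSG00000031616, chromosome 8 from 77663031 to 77724464) had 19.2 and 24.7 CPM in the controls, against 33.3, 23.4, 14.9 and 24.9 CPM in Htr2b_cKO. The Htr2b_cKO values enclosed both controls. Ednra differed by 0.14 on the log2 scale (SE 0.29, edgeR adjusted p = 0.904; interval of 2 SEs from -0.44 to 0.72). Ednrb, which also clears endothelin and marks endothelial cells and some glia, had the widest range of the 9 over the 6 libraries. Ednrb (ENSMUSG00000022122, chromosome 14 from 103814625 to 103844402) had 15.9 and 14.6 CPM in the controls, against 8.12, 41.2, 12.8 and 5.79 CPM in Htr2b_cKO, a 7.11-fold range within 1 genotype. Htr2b_cKO 2 alone lay above the controls and the other 3 lay below them. The fold change of Ednrb therefore turned on 1 library: 0.16 (SE 0.82, adjusted p = 0.968) with all libraries and -0.77 without Htr2b_cKO 2, where the unadjusted edgeR p was 0.0476 and the adjusted p 0.631. The 10 endothelial markers summed to 91.3 CPM in Htr2b_cKO 2, near the lowest of the 6 libraries, and the part of other cells in this Ednrb value was not tested. The level of Ednra per kilobase divided by that of Ednrb was 0.94 and 1.32 in control and 3.19, 0.44, 0.91 and 3.35 in Htr2b_cKO libraries, so the genotypes overlapped.

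Agtr1a encodes the main angiotensin II type 1 receptor of the mouse, the target of sartan drugs in heart failure. Agtr1a (ENSMUSG00000049115, chromosome 13 from 30336441 to 30382867) had 6.35 and 11.6 CPM in the controls, against 6.34, 5.96, 6.04 and 9.001 CPM in Htr2b_cKO. Control 2 was the highest library, and control 1 was as low as 3 of the Htr2b_cKO libraries. Agtr1a differed by -0.38 on the log2 scale (SE 0.30, edgeR adjusted p = 0.713; interval of 2 SEs from -0.98 to 0.23). The difference was -0.76 without control 1, where the unadjusted p was 0.0451, and 0.11 without control 2. The direction of Agtr1a thus rests on control 2. The authors' normalized values of Agtr1a were 185 and 339 in the controls, against 182, 174, 265 and 317 in Htr2b_cKO. With the authors' factors as offsets the log2 fold change was -0.15 (edgeR unadjusted p = 0.685).

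Bdkrb2, the gene of the constitutive bradykinin receptor, was close to the limit of detection. Bdkrb2 (ENSMUSG00000021070, chromosome 12 from 105563226 to 105595237) had 48 and 12 counts in control and 30, 11, 8 and 29 counts in Htr2b_cKO libraries. These are 1.25 and 0.434 CPM in the controls, against 1.07, 0.331, 0.242 and 0.861 CPM in Htr2b_cKO, so the groups overlapped throughout. The log2 fold change of -0.54 (SE 0.70, edgeR adjusted p = 0.835) has an interval of 2 SEs from -1.93 to 0.85, and the controls alone differed 2.88-fold. It was 0.49 without control 1. The inducible receptor gene Bdkrb1 was higher per kilobase in every library, by 8.42 to 31.2 times.

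Levels of different genes were compared as CPM per kilobase of exon. S1pr3 stood highest at 41.6 ± 12.7 (SD, n = 6), followed by F2r at 23.3 ± 5.0, Lpar1 at 14.3 ± 2.6 and S1pr2 at 8.54 ± 1.52. Below them were Ednra at 4.27 ± 1.13, Ednrb at 3.84 ± 2.99, Agtr1a at 2.71 ± 0.82, F2rl1 at 1.00 ± 0.56 and Bdkrb2 at 0.184 ± 0.111. Lysolipid and thrombin receptors thus carried most of the receptor RNA: S1pr3 alone was 26.8% to 51.2% of the summed level of the 9 per library, F2r 15.1% to 32.8%, and Lpar1 10.52% to 19.8%. Of the 8 neighbouring pairs in this order, 5 held in all 6 libraries. S1pr3 exceeded F2r in 5 of 6 libraries, the exception being Htr2b_cKO 3 with 24.7 against 30.3. Ednra exceeded Ednrb, and Ednrb exceeded Agtr1a, in 3 of 6 libraries each, so the place of Ednrb is not fixed by the data, while Ednra lay above Agtr1a in all 6. The order of the means was the same with the length of the longest transcript and with the authors' normalized values. The pairs that held in all 6 libraries numbered 4 with the longest transcript and 5 with the authors' values.

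**Figure D3:**
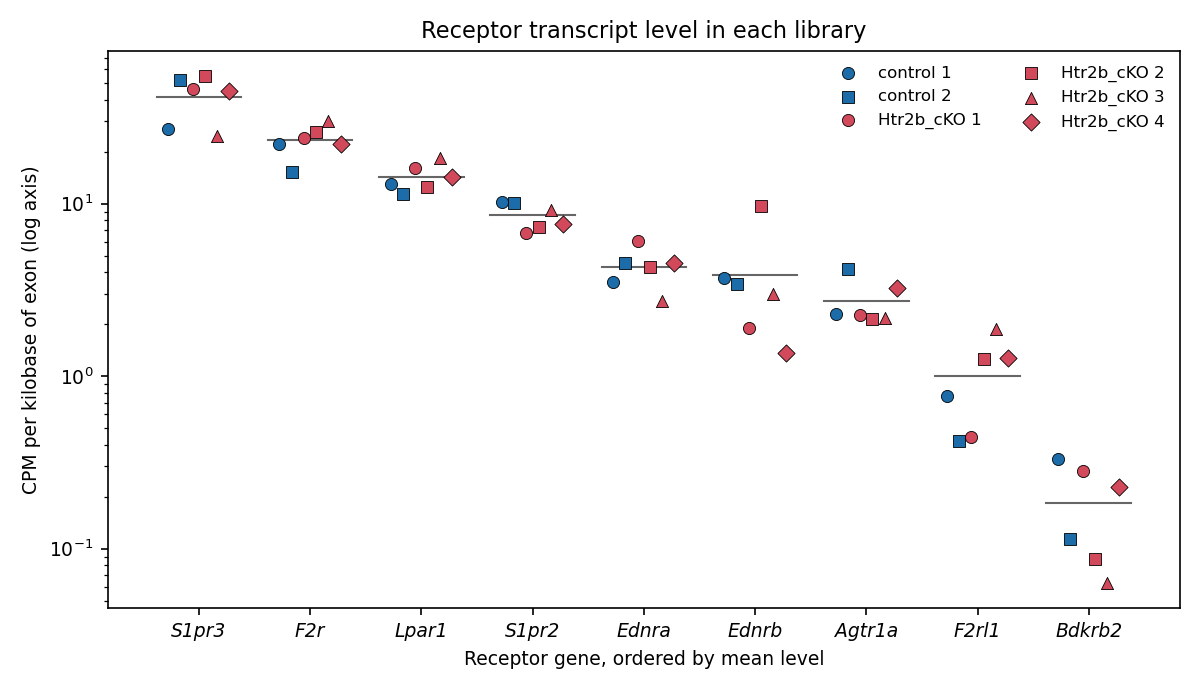
Level of each receptor gene in CPM per kilobase of exon, on a log axis, with 1 point per library (blue, control; red, Htr2b_cKO) and a grey line at the mean of the 6. Genes are ordered by mean, from S1pr3 at 41.6 to Bdkrb2 at 0.184. The points of Ednra, Ednrb and Agtr1a overlap.

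Within each ligand's family the same receptor held most of the RNA in every library, except in the endothelin and angiotensin families. S1pr3 made up 55.4% to 76.8% of the summed level per kilobase of the 5 sphingosine 1-phosphate receptors, and S1pr2 10.2% to 22.03%. S1pr1, the Gi-coupled receptor that is abundant in endothelium, made up 9.79% to 22.8%, with its highest share in control 1, the library with the most endothelial RNA. Its level per kilobase was highest in Htr2b_cKO 1, at 12.6 against 11.2 in control 1. The part of endothelial cells in the S1pr1 values was not tested. Lpar1 made up 67.1% to 77.4% of the 6 lysophosphatidic acid receptors. F2r made up 93.9% to 98.2% of the 4 protease-activated receptors. F2rl2 and F2rl3, which encode receptors 3 and 4 and are typical of platelets, reached at most 0.211 and 0.416 CPM.

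The angiotensin family shifted more between libraries. Agtr2, the type 2 receptor that often opposes type 1 signalling, had 0.755 and 0.759 CPM in the controls, against 2.85, 7.65, 0 and 3.42 CPM in Htr2b_cKO. A count of 0 in the library labelled Htr2b_cKO 3 allows up to 0.0906 CPM. Agtr2 thus stood above the controls in 3 Htr2b_cKO libraries and below them in the other, and its log2 fold change of 2.20 (SE 1.32, edgeR adjusted p = 0.643) did not pass the test. The value depended on single libraries and on the tool: it was 1.45 without Htr2b_cKO 2, 0.37 with limma voom, and 2.63 without Htr2b_cKO 3, where the unadjusted p was 0.0029. Agtr1a made up 89.5% and 94.8% of the family in control and 48.1% to 100% in Htr2b_cKO libraries. In Htr2b_cKO 2 Agtr2 held 51.6% of the family, more than Agtr1a. Agtr1b and Mas1 reached at most 1 and 4 counts in any library.

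**Figure D4:**
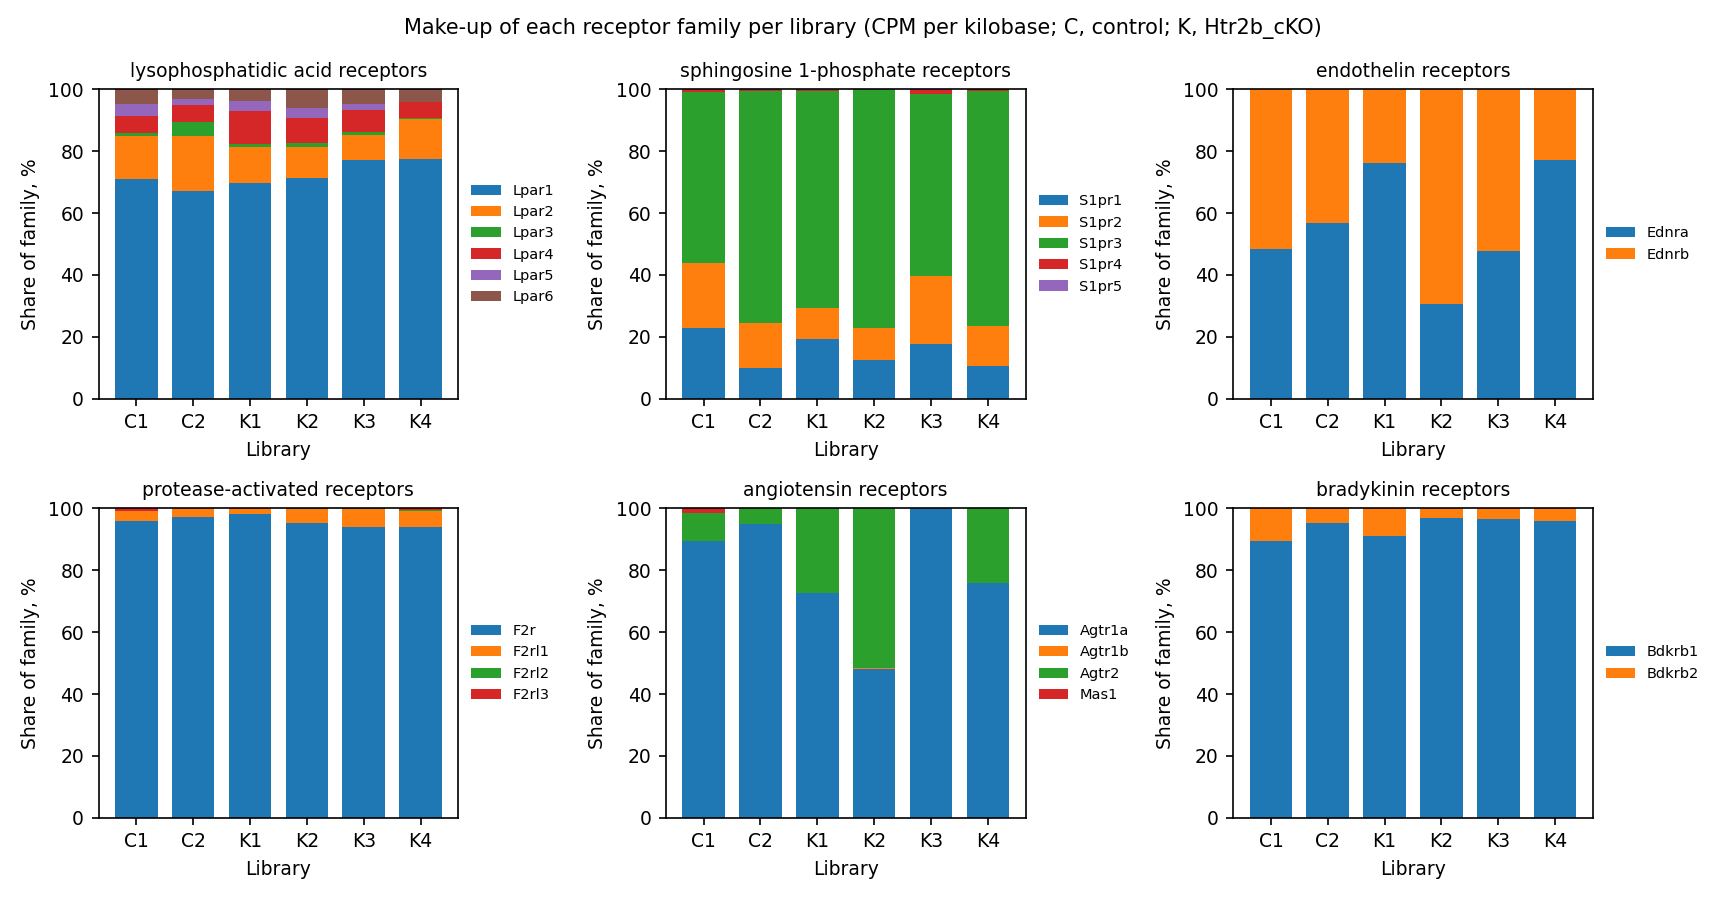
Share of each receptor gene in the summed CPM per kilobase of its family, in percent, for the 2 control (C1, C2) and 4 Htr2b_cKO (K1 to K4) libraries. S1pr3, Lpar1, F2r and Bdkrb1 hold the largest share of their families in all 6 libraries. The endothelin and angiotensin families vary from library to library, with Agtr1a at 48.1% in K2 and 100% in K3.

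Of 14 other receptors for these ligands 10 were tested, with 5 log2 fold changes above 0 and 5 below, 0 called and 0 at an unadjusted p under 0.05. Lpar2 had 16.2 ± 1.9 CPM in the controls, against 12.8 ± 2.4 CPM in Htr2b_cKO, and S1pr1 27.3 ± 9.6 and 26.8 ± 8.5 CPM (SD, n = 2 and n = 4). Adrenergic receptors, which bind the catecholamines, were scarce: the 9 genes summed to 9.84 and 4.92 CPM in the controls, against to 6.03 to 10.7 CPM in Htr2b_cKO. None of the 7 tested adrenergic genes was called or reached an unadjusted p under 0.05.

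Genes of the ligands and of the enzymes that make or release them showed a few lower values. Of 18 genes 13 were tested, 0 were called, and 4 had an unadjusted p under 0.05, all 4 with lower values in Htr2b_cKO, where 2.99% of all genes had such a p on that side. DESeq2 called 0 of them, and 2 had an unadjusted p under 0.05 with it. Spns2, which exports sphingosine 1-phosphate from cells, had 14.6 and 9.33 CPM in the controls, against 6.13, 5.36, 7.09 and 6.001 CPM in Htr2b_cKO. The groups did not overlap, and they differed by -0.97 on the log2 scale (SE 0.24, edgeR adjusted p = 0.326). Sphk2, a kinase that makes sphingosine 1-phosphate, had 24.7 and 22.7 CPM in the controls, against 14.3, 17.1, 19.96 and 19.0 CPM in Htr2b_cKO, again without overlap (log2 fold change -0.43, SE 0.17, adjusted p = 0.486). Of the 13 tested genes 3 had groups that did not overlap on the lower side, where 8.98% of all genes did, and 1 on the higher side, where 10.6% did. The groups of Sphk1, the other sphingosine kinase, overlapped, with 35.2 and 21.4 CPM in the controls and 20.7, 24.2, 26.0 and 50.1 CPM in Htr2b_cKO. Sphk2 was at an unadjusted p of 0.117 after GC and length correction. Spns2 was highest in control 1, where endothelial markers were also highest, and its log2 fold change was -0.60 without that library. Control 2 had 89.8 CPM of endothelial markers and more Spns2 than any Htr2b_cKO library. Htr2b_cKO 1 and Htr2b_cKO 3 had 167 and 166 CPM of these markers and less Spns2 than control 2. The part of endothelial cells in the Spns2 values was not tested.

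Enpp2 encodes autotaxin, the secreted enzyme that makes lysophosphatidic acid, and had the highest mean CPM of that list. It had 412 and 791 CPM in the controls, against 459, 284, 267 and 349 CPM in Htr2b_cKO. Control 2 was far above the other 5, and Htr2b_cKO 1 overlapped control 1. Enpp2 differed by -0.82 on the log2 scale (SE 0.30, edgeR adjusted p = 0.461), and by -0.27 without control 2. Cma1, the mast cell chymase that can form angiotensin II, had 0.885 and 1.41 CPM in control and 0.683 CPM in Htr2b_cKO 4, with 0 counts in the other 3. The converting enzymes for the peptides differed little: Ace was at 293 ± 42 CPM in the controls, against 282 ± 72 CPM in Htr2b_cKO, and Ece1 at 122 ± 13 and 126 ± 4 CPM. The endothelin 1 gene Edn1 had 9.86 ± 1.70 and 10.01 ± 4.24 CPM, and the angiotensinogen gene Agt 2.23 ± 0.28 and 2.21 ± 1.77 CPM. F2, the prothrombin gene, was at 0 counts in both controls and at 0.0602 CPM at most in Htr2b_cKO, under the floor of 3 counts.

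Of 11 ligand-degrading enzymes all were tested, 0 were called by edgeR, and 1 had an unadjusted p under 0.05. This was Xpnpep2, a membrane aminopeptidase that cuts bradykinin, with 24.5 and 49.0 CPM in the controls, against 15.6, 15.7, 16.5 and 19.3 CPM in Htr2b_cKO. All 4 Htr2b_cKO libraries lay below both controls, which themselves differed. Xpnpep2 differed by -1.13 on the log2 scale (SE 0.25, edgeR adjusted p = 0.322; DESeq2 adjusted p = 0.0207), and it was -0.54 without control 2. Plpp3, a phosphatase that removes lysolipids, was abundant at 223 ± 24 CPM in the controls, against 243 ± 26 CPM in Htr2b_cKO.

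The kinase genes Rock1 and Rock2 had the smallest p-values among the 80 tested of 91 companion genes. Their products, which phosphorylate the myosin light chain machinery downstream of RhoA, drive contraction, and both genes had higher values in all 4 Htr2b_cKO libraries. Rock1 had 27.6 and 31.2 CPM in the controls, against 65.3, 65.5, 56.3 and 67.7 CPM in Htr2b_cKO. Rock2 had 55.8 and 65.3 CPM in the controls, against 99.5, 114, 92.1 and 122 CPM in Htr2b_cKO. Neither was called by edgeR (Rock1: log2 fold change 1.12, SE 0.14, adjusted p = 0.107; Rock2: 0.82, SE 0.16, adjusted p = 0.313). DESeq2 called both, with adjusted p of 2.56e-05 and 0.0154. With GC content and length corrected, the log2 fold changes were 0.65 and 0.43, and edgeR called neither. The other 9 genes of the G12/13 and RhoA list lay between -0.23 and 0.18, with Rhoa at 464 and 502 CPM in the controls, against 404, 424, 444 and 375 CPM in Htr2b_cKO (-0.23, and -0.48 with GC content and length corrected).

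**Figure D5:**
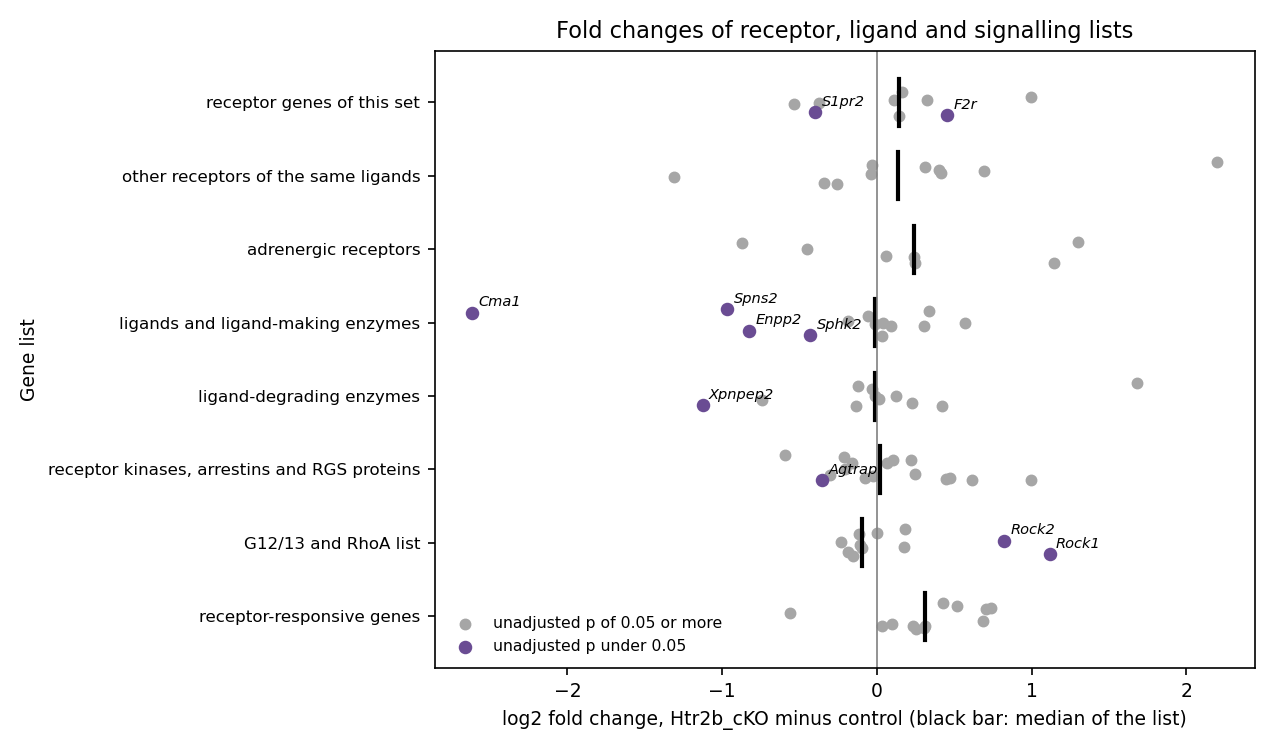
Log2 fold change (Htr2b_cKO minus control) of each tested gene in the receptor set and in 7 companion lists, with a black bar at the median of each list. Purple points are named and have an unadjusted edgeR p under 0.05, and none of the genes shown passed the adjusted edgeR test. Rock1 and Rock2 stand apart from the rest of their list, and the receptor-responsive genes lie mostly above 0.

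Genes that limit receptor signalling gave 8 log2 fold changes above 0 and 8 below, with 0 of 16 called. Agtrap, whose product draws the angiotensin type 1 receptor into the cell, had 99.7 and 120.3 CPM in the controls, against 89.8, 81.4, 84.3 and 89.0 CPM in Htr2b_cKO (log2 fold change -0.35, SE 0.13, edgeR adjusted p = 0.461). Rgs2, which shortens Gq signals, had 41.7 and 35.2 CPM in the controls, against 42.6, 73.1, 75.1 and 45.1 CPM in Htr2b_cKO (log2 fold change 0.62, SE 0.27, adjusted p = 0.528). The groups of both genes did not overlap, which held for 3 of the 16 genes of the list, near the 19.6% of all genes. Of 12 genes known to respond to these receptors 11 had a log2 fold change above 0 and 1 below, with a median of 0.31, and 0 were called or reached an unadjusted p under 0.05 with edgeR. DESeq2 called 0 as well, and 3 of the 12 (Rcan1, Ptgs2 and Il6) had an unadjusted p under 0.05 with it, all with higher values, against 5.86% of all genes. Ccn2, the connective tissue growth factor gene, had 364 and 190.3 CPM in the controls, against 257, 343, 395 and 382 CPM in Htr2b_cKO, and Ptgs2, the inducible cyclooxygenase gene, 116 and 239 CPM in the controls, against 213, 304, 235 and 402 CPM in Htr2b_cKO.

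Across the 6 libraries the genes most like the 3 receptors with the highest CPM were found by Pearson's r of log2(CPM + 0.5) among 9441 other genes of mean CPM of at least 10. For S1pr3 these were Ppp2r2a (r = 0.995) and Glis3 (r = 0.99), for F2r Nedd9 (r = 0.986) and Knstrn (r = 0.983), and for S1pr2 Vps25 (r = 0.998). With 6 libraries that differ in depth and in markers of other cells, such values describe these libraries only. Across them 29, 7 and 57 genes had r above 0.95 with S1pr3, F2r and S1pr2.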

How the data were processed

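The authors deposited whole-number estimated counts per Ensembl gene, taken as rounded estimates because, per the file headers, the columns end as a transcript quantifier's output does, and a normalized signal in which each count is divided by a factor that differs by gene and library. DRAGEN, DESeq2 and mm10 are named per the submitters' processing notes; their roles, and any strand setting, are not stated there. All 42256 identifiers matched GENCODE M21 (mm10), which gave symbols, positions and exon lengths; genes that overlap a receptor had at most 17 counts. Libraries were grouped by genotype (4 against 2). Counts were used as they stand in edgeR 4.0.16 (R 4.3.3): filterByExpr, TMM, robust quasi-likelihood F test with edgeR's newer dispersion method, two-sided, Benjamini-Hochberg adjustment over 15840 genes. CPM uses TMM-scaled library sizes, and each SE came from dividing a log2 fold change by the root of its F statistic. A count of 0 allows 3 counts, 0.0781 to 0.108 CPM, for counting error only. DESeq2 1.42.0 and limma 3.58.1 served as alternatives. In simulated data with 15311 genes, edgeR called 16 of 96 genes changed by 1 and 58 of 99 changed by 2 on the log2 scale, and 12 unchanged genes.

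Named genes were the 9 receptors, 3 label checks, and from each companion list called genes, the 3 most abundant per kilobase and the 2 with the smallest p among the tested; from each marker list, the 2 most abundant. Others named (among them Agtr2, Sphk2, Cma1, Edn1, Agt, F2, Sphk1, Ccn2 and Il6) were chosen after their values were seen. Some genes that the rule names are not reported here. The receptors and lists were chosen with earlier results of these data known. The marker lists not described above summed, per library, to 51394 to 78372 CPM for fibroblast, 25.9 to 105.8 for neutrophil, 2.78 to 24.8 for lymphocyte, 49.4 to 68.4 for Schwann, 262 to 435 for epicardial and mesothelial, 11.3 to 41.9 for cardiomyocyte, and 18.5 to 85.3 CPM for platelet and megakaryocyte genes; no marker was at 0 in every library.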

Additional observations from a re-analysis of the deposited data

Results flagged for a closer look

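The Agtr1a value of Htr2b_cKO 4 (9.001 CPM) stood far from those of the other 3 Htr2b_cKO libraries (5.96 to 6.34 CPM), by Dixon's test of the gap over the range. In the authors' normalized values Agtr1a was 182, 174, 265 and 317 in Htr2b_cKO, where Htr2b_cKO 3 also lay above Htr2b_cKO 1 and Htr2b_cKO 2. By the same test, the neutrophil markers S100a9 (42.2 CPM) and S100a8 (23.35 CPM) in Htr2b_cKO 4 stood apart from the other 3 Htr2b_cKO libraries. The 8 neutrophil markers summed to 78.8 CPM in Htr2b_cKO 4, the only male, and to 105.8 CPM in control 1. The part of sex in these values was not tested. Chance flags about 1 in 20 groups, and 61 groups of 4 were examined.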

How the results depend on the processing

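No receptor was called in any of 15 other settings, and 126 of 135 receptor values kept their direction; F2r, F2rl1, Lpar1 and S1pr2 kept it throughout. Ednrb was -0.27 with limma voom, -0.0071 after GC and length correction and, with a library left out, -0.77 (without Htr2b_cKO 2) to 0.45. Ednra was -0.035 without control 1 and -0.043 without Htr2b_cKO 1, up to 0.34. S1pr3 was -0.28 without control 1 and -0.027 without Htr2b_cKO 2, up to 0.66; Bdkrb2 0.49 without control 1, down to -1.02; and Agtr1a 0.11 without control 2, down to -0.76. The cause of these reversals was not tested. Receptors whose groups did not overlap numbered 2, with 1 after GC and length correction and 2 to 5 with a library left out, as fewer libraries overlap less. Genes called overall numbered 3: 5 with no low-count filter, 105 with DESeq2 (3 of them companion genes, where edgeR called 0), 1 with limma voom, 1 to 8 with a library left out (1 without control 1, 6 without control 2, 8 without Htr2b_cKO 4), and 5 without both Htr2b_cKO 3 and Htr2b_cKO 4. The legacy dispersion of edgeR, added after seeing the data, called 2. No paired analysis was possible because the labels give no replicate numbers shared by the groups. With 2 controls, whichever of them is left out sets the direction of Agtr1a, S1pr3, Ednra and Bdkrb2.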
